A study of Homo sapiens with 4 samples.

Results

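CTSO, the gene of the lysosomal cysteine protease cathepsin O, was examined with 9 related genes: CTSA, CTSB, CTSC, CTSD, CTSH, CTSL, CTSS, CTSZ and LGMN. These 10 genes were taken by name from 18377 genes that had a probe set of their own, and each had exactly 1 such probe set. CTSO was selected on its measured log2 difference between the groups, and the others for their kinship with it. The cells were OPM2, an established human multiple myeloma line, which is a tumour of plasma cells. Tested cultures received the inhibitor VS-5584 (SB2343) at 123 nM for 24 h and the controls received its solvent DMSO for 24 h, with 2 arrays in each group. The series' design text gives 125 nM in place of 123 nM. All 4 cultures were of the same line in the same serum-containing medium, so the values describe 1 tumour line. VS-5584 blocks class I PI3 kinases and the kinase mTOR, and the comparison asks which transcripts differ after a day of that inhibition.

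Cathepsins are the proteases that break down protein inside lysosomes, the acidic digestive compartments of the cell. Most belong to the papain-like cysteine family, while CTSA is a serine carboxypeptidase, CTSD an aspartic protease and LGMN an asparagine-specific cysteine protease of a separate family. They are made as inactive precursors, tagged with mannose 6-phosphate, carried to the lysosome and activated there by acid, and cystatins inhibit the papain-like members. Active mTOR holds the transcription factor TFEB, which drives many lysosomal genes through the E-box CACGTG, in the cytoplasm.

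Values are log2 intensities of 1 probe set per gene, so levels are compared between arrays and not between genes. Limma, a linear model with a variance partly shared between genes, was fitted to the 11026 genes left after the dimmest 40% were removed, and the threshold was a Benjamini-Hochberg adjusted p of 0.05. None of the 11026 genes passed (0%), while 1149 (10.4%) had an unadjusted p under 0.05, 164 of them higher and 985 lower after VS-5584. Of the 10 genes, 8 entered the test, and CTSL and CTSS fell among the dim genes and were not tested. VS-5584 replicate 2 stood apart from the other arrays: over all probe sets its correlation with them was 0.980 to 0.985, against 0.993 to 0.996 among the others. Its log2 values were also narrower, with an interquartile range of 1.74 against 1.93 to 1.95. With cyclic loess the median tested gene moved from -0.06 to -0.01. Genes without overlap were then 2246 higher and 2694 lower, against 1619 and 3223. The part of this array in the excess of lower genes was not tested. Counts of genes past the threshold turned on single arrays, with 2636 genes (23.9%) without VS-5584 replicate 1 and 2 without VS-5584 replicate 2. In such a fit the group with 1 array is assumed to vary like the other group. The titles speak of biological replicates but not of how the cultures were kept apart, so p-values measure only the spread between these samples. All 9 plasma cell markers passed the brightness filter, with 5 higher and 4 lower on average after VS-5584 and a median log2 difference of 0.10. Without overlap, 2 of them were higher and 1 lower, where 14.7% and 29.2% of all tested genes were. Over all 18377 genes, tested or not, 3227 were higher and 3933 lower without overlap. Of 8 monocyte and macrophage markers, from cells rich in cathepsins, 1 passed the filter, and of the 8 measured 4 were higher without overlap and 0 lower. Their summed intensity was 294 and 313 after VS-5584 against 289 and 288 in DMSO. Of 5 fibroblast markers 2 passed the filter and 3 were higher without overlap, with a summed intensity of 231 and 236 after VS-5584 against 221 and 221 in DMSO. Of 4 T cell markers 0 passed, with sums of 139 and 148 after VS-5584 against 135 and 143 in DMSO. The lowest intensity of any probe set was 19.8, on VS-5584 replicate 1, so a marker above 0 does not show that its transcript was present. The part of these markers in the results was not tested.

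CTSO was about 2-fold brighter on both VS-5584 arrays than on the DMSO arrays. Its intensity was 231 and 209 after VS-5584, against 127 and 99.6 in DMSO. On the log2 scale this is 7.85 and 7.71 after VS-5584, against 6.99 and 6.64 in DMSO. Both treated arrays lay above both controls, and the groups did not overlap. The means were 7.78 ± 0.10 after VS-5584 and 6.81 ± 0.25 in DMSO (SD, n = 2 each), a log2 difference of 0.97 ± 0.16 (SE) or 1.96-fold. CTSO was selected on this measured difference, which is therefore given as a description with no test.

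The 4 differences between a VS-5584 array and a DMSO array ran from 0.72 to 1.21 in CTSO. With matching replicate numbers they were 0.87 for replicate 1 and 1.07 for replicate 2. The distance between the DMSO replicates was 0.35 and that between the VS-5584 replicates 0.14. Relative to the DMSO mean, CTSO was higher by 1.04 on VS-5584 replicate 1 and by 0.90 on VS-5584 replicate 2. On replicate 1, which lay close to the controls over all genes, 2 of 11026 tested genes had a larger increase than CTSO. On replicate 2, 26 did. By the mean difference CTSO ranked 5 from the top, and by the gap between the lowest treated and the highest control array it ranked 4. These counts and ranks come from the values on which CTSO was selected, so they are a description and no independent support. The median tested gene differed by -0.06, and CTSO stood 1.03 above it.

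**Figure D1:**
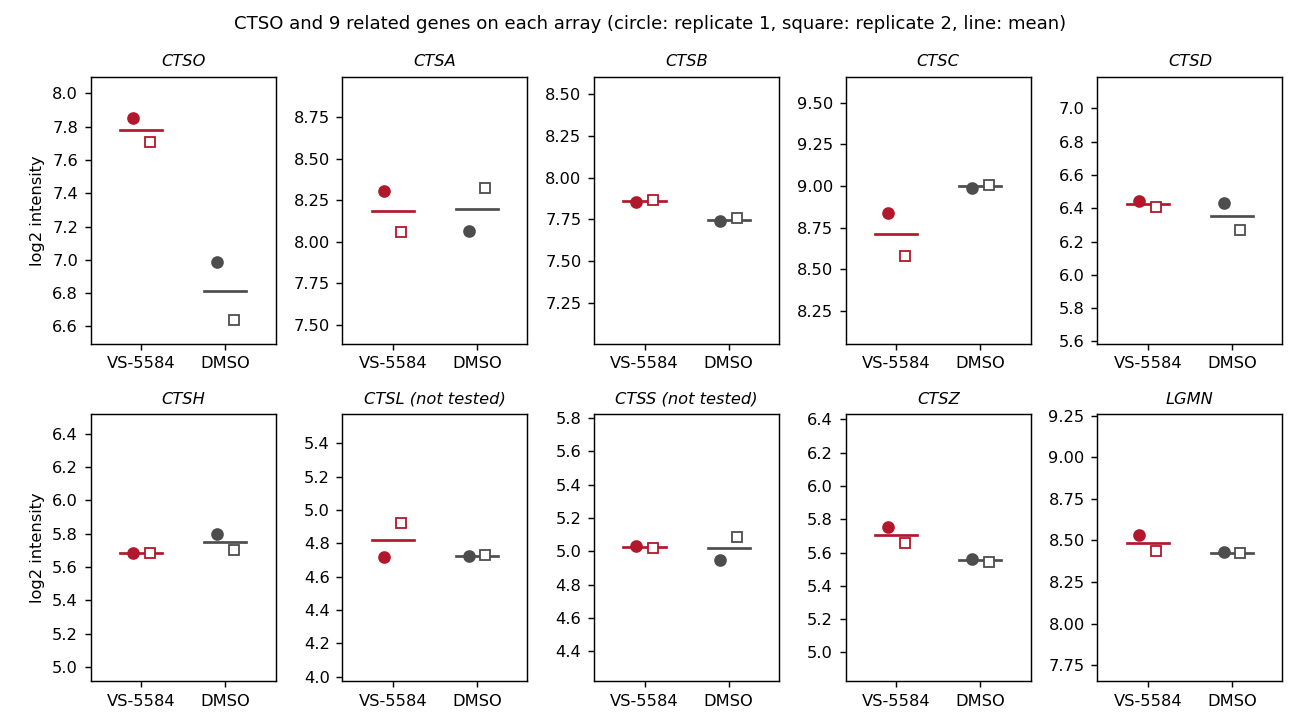
Log2 intensity of each of the 10 genes on the 2 VS-5584 arrays (red, left) and the 2 DMSO arrays (grey, right); circles are replicate 1, squares replicate 2, lines group means, and every panel spans the same number of log2 units around its own mean. CTSO lies at 7.85 and 7.71 after VS-5584 against 6.99 and 6.64 in DMSO, while the other panels show smaller distances between the groups.

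The difference in CTSO had the same sign under each alternative processing tried, but only the normalizations could have turned it. With them the difference ran from 0.92 with arrays centred on their medians to 1.09 with cyclic loess. Both treated arrays lay above both controls, so leaving out 1 array could not change the sign. Leaving out 1 array gave 0.79 without control replicate 2 and 1.14 without control replicate 1, with 0.90 and 1.04 without VS-5584 replicate 1 or 2. RNA was extracted from whole cultures, so a larger share of cells with the transcript and more transcript per cell cannot be told apart.

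**Figure D2:**
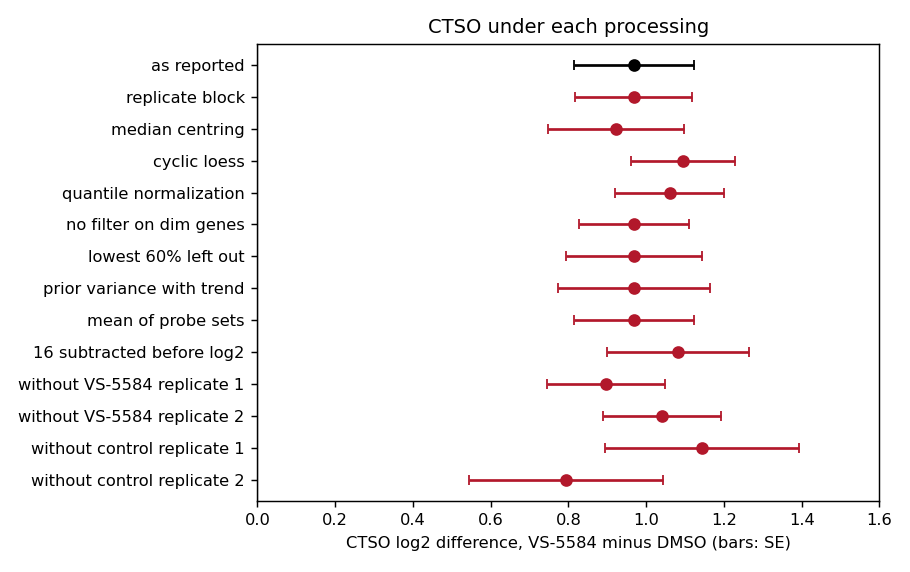
CTSO log2 difference, VS-5584 minus DMSO, as reported (black) and under each alternative (red), with the SE of the limma model as bars. The points run from 0.79 without control replicate 2 to 1.14 without control replicate 1.

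The 5 tested genes whose profile over the 4 arrays lay nearest to that of CTSO were KLHL24, MUC13, ZNF737, ZBP1 and PLAAT4. Likeness was the Euclidean distance between log2 profiles centred on their own means, and with 4 arrays it mostly reflects the 2 groups. KLHL24, a substrate adaptor of a cullin ubiquitin ligase, was nearest, at a distance of 0.22. It stood at 7.76 and 7.62 after VS-5584 against 7.07 and 6.79 in DMSO. Like CTSO it was lower on DMSO replicate 2, a likeness that the distance itself selects for. MUC13, a transmembrane mucin, was at a distance of 0.32, with 9.47 and 9.74 after VS-5584 against 8.76 and 8.61 in DMSO. The zinc finger gene ZNF737 and ZBP1, a sensor of Z-form nucleic acid, both had a distance of 0.34, and the phospholipid acyltransferase gene PLAAT4 one of 0.36. Among the other 7 tested members CTSZ came nearest to CTSO, at a distance of 0.85 and rank 960, and CTSC was farthest, at 1.29 and rank 9231.

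The other papain-like cathepsins among the 10 differed by -0.29 to 0.15 on the log2 scale. CTSC, or cathepsin C, is the dipeptidyl peptidase that activates the granule serine proteases of immune cells. It stood at 8.84 and 8.58 after VS-5584, against 8.99 and 9.01 in DMSO. The treated arrays lay below both controls, and VS-5584 replicate 2 was the lower one. The difference was -0.29 ± 0.14 (SE), a 1.22-fold decrease on average that did not pass (limma adjusted p = 0.513). Without VS-5584 replicate 1, a setting with 1 treated array in which 23.9% of tested genes passed, it was -0.42 (limma adjusted p = 0.0308, against 0.0308 to 0.99995 over all alternatives), and without VS-5584 replicate 2 it was -0.16.

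CTSB, or cathepsin B, is an abundant lysosomal protease with both endopeptidase and carboxypeptidase activity. It stood at 7.85 and 7.87 after VS-5584, against 7.74 and 7.76 in DMSO. The replicates lay close together and the groups did not overlap. The difference was 0.11 ± 0.13 (SE; limma adjusted p = 0.766), an SE that is wider than this gene's own spread because the model shares variance between genes.

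CTSZ, a carboxypeptidase also called cathepsin X, stood at 5.75 and 5.66 after VS-5584, against 5.56 and 5.55 in DMSO. Both treated arrays were above both controls, with a difference of 0.15 ± 0.13 (SE; limma adjusted p = 0.690). CTSH, an aminopeptidase, read 5.68 on both VS-5584 arrays, against 5.80 and 5.70 in DMSO. It was lower on the treated arrays by 0.02 at the closest, and the mean difference of -0.07 ± 0.13 (SE) did not pass (limma adjusted p = 0.861).

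CTSL, a broad endopeptidase, and CTSS, which trims the invariant chain of MHC class II in antigen-presenting cells, were dim on these arrays. CTSL stood at 4.72 and 4.92 after VS-5584, against 4.72 and 4.73 in DMSO, and the groups overlapped. CTSS stood at 5.03 and 5.02 after VS-5584, against 4.95 and 5.09 in DMSO, and the treated values lay between the controls. Their mean differences were 0.10 and 0.0071. Detection calls were not used here, so whether these values exceed background was not determined.

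**Figure D3:**
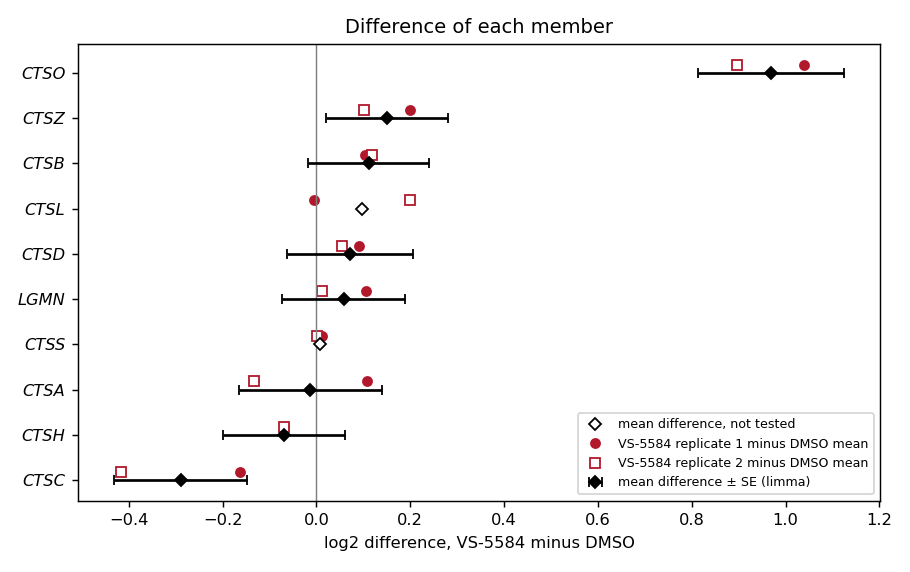
Log2 difference, VS-5584 minus DMSO, of the 10 genes in order of size, with black diamonds for the mean and its SE from limma (open and without SE where not tested) and red symbols for each treated array against the DMSO mean. CTSO stands at 0.97, the other genes between -0.29 (CTSC) and 0.15 (CTSZ).

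The remaining 3 genes are of other protease families. CTSA, the serine carboxypeptidase that also shields neuraminidase 1 and beta-galactosidase from degradation, stood at 8.30 and 8.06 after VS-5584, against 8.07 and 8.32 in DMSO. The groups overlapped, with a difference of -0.01 ± 0.15 (SE; limma adjusted p = 0.985). CTSD, the main lysosomal aspartic protease, stood at 6.44 and 6.41 after VS-5584, against 6.43 and 6.27 in DMSO. DMSO replicate 1 lay between the treated arrays, and the difference was 0.07 ± 0.13 (SE; limma adjusted p = 0.860).

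LGMN, or legumain, cuts after asparagine and processes several cathepsins to their 2-chain forms. It stood at 8.53 and 8.44 after VS-5584, against 8.43 and 8.43 in DMSO. Only VS-5584 replicate 1 was clear of the controls, replicate 2 exceeding the higher one by 0.0087. The difference was 0.06 ± 0.13 (SE; limma adjusted p = 0.883).

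RefSeq promoter windows (GRCh38.p14, 250 bases before to 50 after the start) were at hand for 6 of the 10 genes: CTSA, CTSC, CTSD, CTSH, CTSL and CTSZ. They were searched on both strands for CACGTG, the E-box that TFEB binds, for its longer form TCACGTGA, and for GTAAACA, the core site of FOXO factors, which PI3 kinase signalling keeps out of the nucleus. The stretches below hold the matches upstream of the start, in capitals, and are shown so that the motifs can be read beside the values of these genes. They read 5′ to 3′ along the gene's strand, from chr20:45891273-45891334 (+) for CTSA, chr11:1763949-1763994 (-) for CTSD and chr9:87725947-87725993 (+) for CTSL.
CTSA: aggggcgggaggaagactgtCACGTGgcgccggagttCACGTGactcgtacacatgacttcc
CTSD: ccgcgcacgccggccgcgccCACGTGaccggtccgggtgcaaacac
CTSL: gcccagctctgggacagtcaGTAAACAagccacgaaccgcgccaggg

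CTSA held 2 copies of CACGTG, whose first bases lay at -42 and -25 from the start, and the second was part of TCACGTGA. CTSD held 1 copy, at -47. CTSL held GTAAACA at -152. The windows of CTSC, CTSH and CTSZ held none of these motifs. Of all 35116 windows, 7.26% held CACGTG, 0.980% TCACGTGA and 3.42% GTAAACA. The genes with an E-box, CTSA and CTSD, had log2 differences of -0.01 and 0.07. CTSL, with the FOXO core, was too dim to be tested and differed by 0.10. Against the DMSO mean it was -0.0045 on VS-5584 replicate 1 and 0.20 on VS-5584 replicate 2. Over tested genes with a window, the median log2 difference was -0.10 for the 1128 genes with CACGTG and -0.07 for those without, and -0.03 for the 310 genes with GTAAACA and -0.08 for those without. A match is a description of the sequence and was not shown here to be a binding site.

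Among the 8 tested members, 4 were higher on both VS-5584 arrays than on both DMSO arrays (CTSO, CTSB, CTSZ and LGMN), where 14.7% of all tested genes were. CTSC and CTSH were lower without overlap, where 29.2% of tested genes were. CTSO was chosen for its direction, so the first count is not independent of the choice. The median log2 difference of the 9 genes other than CTSO was 0.06, with 0.09 on VS-5584 replicate 1 and 0.01 on replicate 2, beside -0.0067 over all 18377 genes. None of the 7 tested ones passed.

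**Figure D4:**
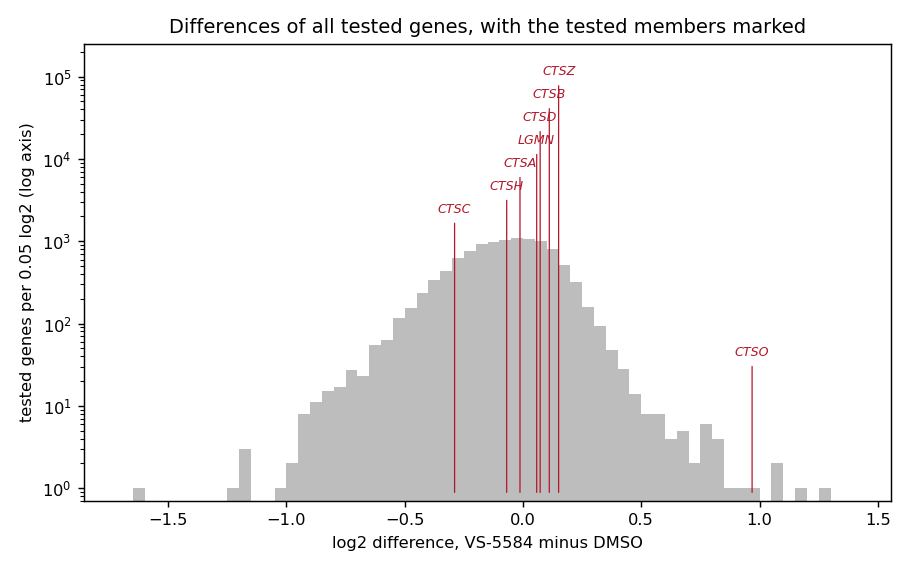
Number of tested genes (log axis) by log2 difference, VS-5584 minus DMSO, for all 11026 tested genes, with red lines at the 8 tested members. CTSO, at 0.97, lies in the thin upper tail, with 4 genes above it, and the others lie in the bulk between -0.29 and 0.15.

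The cathepsins outside the 10 were CTSF, CTSK, CTSV and CTSW of the papain-like family, and CTSE and CTSG, an aspartic and a serine protease. CTSK, known as the collagen-degrading protease of osteoclasts, was the 1 tested among them. It stood at 7.52 and 7.35 after VS-5584, against 7.37 and 7.17 in DMSO. DMSO replicate 1 lay just above the lower treated array, and the difference was 0.16 ± 0.14 (SE; limma adjusted p = 0.690). The 5 untested genes were dim. Of these CTSW differed by 0.18, CTSV by -0.11, CTSG by -0.08, CTSE by 0.04 and CTSF by 0.03. The signs of CTSE and CTSF were not stable, with -0.10 to 0.18 and -0.02 to 0.08 when 1 array was left out, and subtracting 16 from the intensities moved CTSV to -0.24, CTSW to 0.30 and CTSG to -0.15. Over all 11 papain-like cathepsins the median log2 difference was 0.10, with 8 higher and 3 lower on average. Over the 5 other proteases it was 0.04, with 3 higher and 2 lower. Over all 18377 genes, tested or not, it was -0.0067, with 8738 higher and 9639 lower.

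Genes that inhibit, deliver or regulate cathepsins differed little on average, and no tested member of these lists passed. Cystatins, the inhibitors, had 9 measured genes, a median of 0.02 and 6 of 9 higher. CSTB, or stefin B, the cystatin that works in the cytosol, stood at 10.43 and 10.30 after VS-5584 against 10.38 and 10.42 in DMSO. CST3, the secreted cystatin C, stood at 7.38 and 7.25 after VS-5584 against 7.14 and 7.50 in DMSO. Both overlapped between the groups, with differences of -0.03 and -0.0086, and the salivary cystatin gene CST4 differed by -0.04. These 3 signs were not stable: CSTB and CST3 turned positive with cyclic loess, and CST4 without VS-5584 replicate 1.

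The list of mannose 6-phosphate tagging and lysosomal sorting had 9 measured genes, with SORT1 not analysed here. Its median was -0.05, with 4 higher and 5 lower. SCARB2, the membrane receptor that carries glucocerebrosidase to lysosomes, stood at 10.69 and 10.91 after VS-5584, against 10.50 and 10.57 in DMSO. The groups did not overlap, and the difference was 0.27 ± 0.14 (SE; limma adjusted p = 0.535). Without VS-5584 replicate 1, a setting with 1 treated array in which 23.9% of tested genes passed, it was 0.38 (limma adjusted p = 0.0444, against 0.0444 to 0.99995 over all alternatives). GNPTAB, the catalytic part of the enzyme that makes the tag, stood at 8.70 and 8.52 after VS-5584, against 8.86 and 8.74 in DMSO. It was lower without overlap, by -0.20 ± 0.14 (SE; limma adjusted p = 0.629). M6PR, the cation-dependent tag receptor, differed by -0.08, a sign that turned with cyclic loess.

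The 4 TFEB family genes had a median of -0.04. TFE3 differed by -0.07 ± 0.13 and MITF by 0.03 ± 0.15 (SE; limma adjusted p = 0.862 and 0.952), and the sign of MITF turned with median centring. TFEB and TFEC were too dim to be tested, with differences of -0.0098 and -0.10. The assay reads transcripts, so the location of these factors in the cell was not measured.

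Among other soluble lysosomal hydrolases and activators, 18 of 21 listed genes were measured, with a median of 0.0023, 9 higher and 9 lower. The treated arrays lay on opposite sides, with a median of 0.12 on VS-5584 replicate 1 and -0.12 on VS-5584 replicate 2 against the DMSO mean. ASAH1, acid ceramidase, stood at 9.39 and 9.38 after VS-5584, against 9.03 and 8.80 in DMSO. Both treated arrays were above both controls, with DMSO replicate 2 lower than DMSO replicate 1 as in CTSO. The difference was 0.47 ± 0.14 (SE; limma adjusted p = 0.351). Without VS-5584 replicate 1, a setting with 1 treated array in which 23.9% of tested genes passed, it was 0.46 (limma adjusted p = 0.0305, against 0.0305 to 0.99986 over all alternatives). The change farthest from 0 in the list was a lower one, in GLA, alpha-galactosidase A, named with GUSB after their values were seen. GLA stood at 8.17 and 7.71 after VS-5584, against 8.62 and 8.49 in DMSO, without overlap, and differed by -0.61 ± 0.17 (SE; limma adjusted p = 0.319). GUSB, beta-glucuronidase, was also lower without overlap, by -0.34 ± 0.16 (SE; limma adjusted p = 0.482). Both leaned on VS-5584 replicate 2: without replicate 1 they were -0.85 and -0.52, and without replicate 2 they were -0.38 and -0.16. NPC2, a cholesterol carrier, and PPT1, a thioesterase, differed by -0.00064 and -0.02, and both turned positive with cyclic loess.

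Over all 11026 tested genes the median log2 difference was -0.06, with 4109 higher and 6917 lower on average. The 16 subunits and partners of the V-ATPase pump, which acidifies lysosomes, were all tested, with a median of -0.06, 6 higher and 10 lower. ATP6V1G1 and ATP6V1E1, subunits of its cytosolic part, differed by -0.04 and -0.07, signs that turned with cyclic loess, and ATP6AP2, an accessory protein, by 0.11. After cyclic loess the median of the list was 0.06. In the list of MHC class II antigen processing, in which CTSS acts, CD74, HLA-DRA and HLA-DRB1 were not analysed here. Of the 12 genes in this list 9 were measured and 3 were bright enough to be tested. Its median was 0.09, with HLA-DOA at 0.26 ± 0.14, HLA-DOB at 0.09 ± 0.14 and HLA-DMA at 0.12 ± 0.13 (SE; limma adjusted p = 0.552, 0.842 and 0.754).

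**Figure D5:**
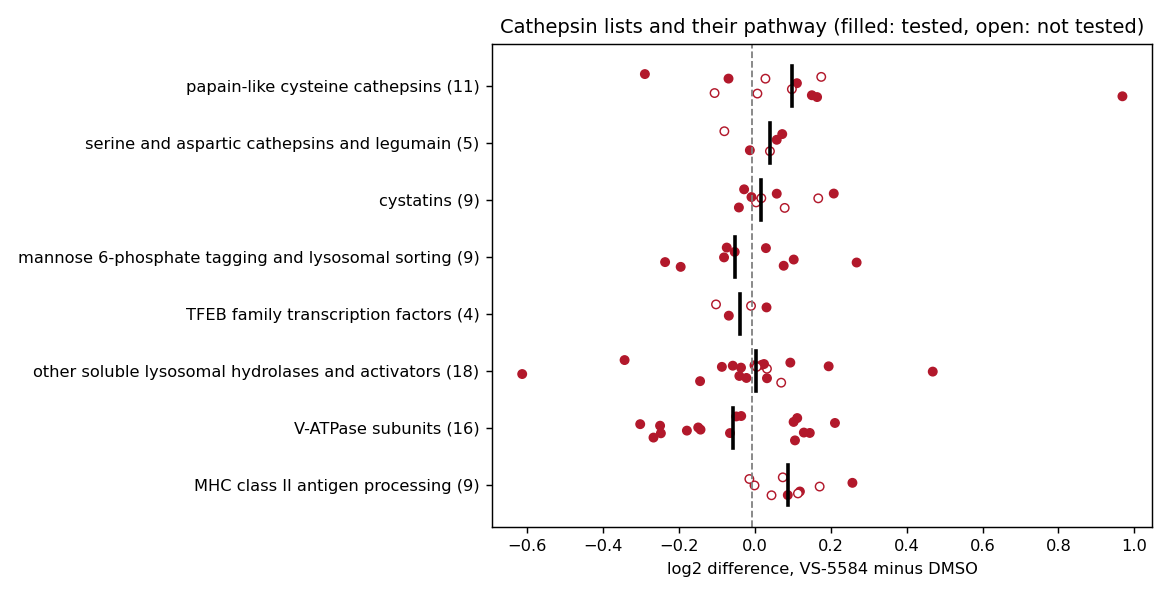
Log2 difference, VS-5584 minus DMSO, of every measured gene of the 8 lists (number in brackets), with black bars at list medians and a dashed line at the median of all genes. List medians lie between -0.06 and 0.10, with CTSO at 0.97 far right in the first row. The median of the tested genes alone, -0.06, is not drawn.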

How the data were processed

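RNA of 4 OPM2 cultures was measured on 1-colour arrays. The authors deposited 1 linear intensity per probe set for 28869 probe sets. The submitters' processing notes name RMA, but the deposited intensities differ in distribution between arrays, and the step between, background correction and any added constant are not given in the sources used here. An added constant would shrink the differences of dim genes. Intensities were turned into log2 values and not normalized again. The platform annotation gives 1 gene for 19310 probe sets, of which 19279 matched RefSeq (GRCh38.p14) by gene ID, several genes for 1752 and none listed for 7807. Genes with several probe sets kept the one with the highest mean. Genes below an intensity of 48.9 on average (the lowest 40%) were not tested.

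Groups were compared with limma 3.58.1 in R 4.3.3 (lmFit and eBayes, no trend, two-sided, Benjamini-Hochberg). On simulated data for 11026 genes, 100% of 100 genes changed 4-fold and 95% of 100 changed 2-fold were called, and 5 unchanged genes were. The simulation checks the code. It has evenly varying groups and does not give the power for these arrays. The members and lists were chosen with earlier results of these data known. Named genes are all cathepsins, the 3 brightest genes of each further list (all of a list of 4), and the 5 nearest to CTSO. GLA and GUSB were named after their values were seen. The number of arrays limits the precision. Alternatives were the replicate block, 3 normalizations, 2 filters, a variance trend, averaged probe sets, 16 subtracted from intensities, another threshold and leaving out each array.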

Additional observations from a re-analysis of the deposited data

How the results depend on the processing

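CTSO kept its direction under all 13 alternatives, with differences of 0.79 to 1.14 when 1 array was left out. Most of them could not have turned it. The replicate block, the filters, the variance trend and averaged probe sets left its difference at 0.97. Both treated arrays lay above both controls, so leaving out 1 array or subtracting 16 could not change the sign. Only the normalizations could, and with them the difference was 0.92 to 1.09. The number of genes past the threshold, 0 as reported, was 16 with cyclic loess, 2 with quantile normalization, 58 with the lowest 60% left out, 80 with a variance trend, 2 with 16 subtracted, 1 at an adjusted p threshold of 0.10, and 2 to 2636 with 1 array left out (2636 without VS-5584 replicate 1, 2 without VS-5584 replicate 2, and 19 and 21 without control replicate 1 or 2). Among the 7 tested members besides CTSO, 0 passed in any of these with all 4 arrays. CTSH and CTSZ were too dim to be tested with the lowest 60% left out. CTSC moved from -0.29 to -0.42 without VS-5584 replicate 1. With the replicate number as a block (replicate block), 432 genes (3.92% of those tested) passed, with 0 of the 7 tested members besides CTSO. The 432 included GLA (-0.61, limma adjusted p = 0.00697), named after its values were seen. KLHL24, MUC13, ZNF737, ZBP1 and PLAAT4 were also included, and these had been picked for their likeness to CTSO. The replicate numbers were not shown to pair the samples: the deviations of same-numbered arrays from their group means correlated at 0.16, from 2 pairs. The count of genes higher without overlap, 1619, was 1008 with median centring, 685 with the lowest 60% left out, 3227 with no filter, and 2613 to 3676 with 1 array left out. That of genes lower without overlap, 3223, was 3810 to 6623 with 1 array left out.

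Of the list medians, those of the other cathepsins and legumain, cystatins, tagging and sorting, hydrolases and V-ATPase changed sign in at least 1 setting. With median centring they were 0.052 for papain-like cathepsins, -0.0056 for the other cathepsins and legumain, -0.028 for cystatins, -0.085 for the TFEB family, 0.041 for MHC class II and 0.012 for the members without CTSO. With cyclic loess and quantile normalization they were 0.11 and 0.088 for the other cathepsins and legumain, -0.094 and -0.088 for the TFEB family and 0.057 and 0.043 for the V-ATPase. With 1 array left out they ran from 0.012 to 0.095 for papain-like cathepsins, -0.0099 to 0.091 for the other cathepsins and legumain, 0.024 to 0.090 for cystatins, -0.14 to 0.086 for tagging and sorting, -0.12 to 0.12 for the hydrolases and activators, -0.12 to 0.025 for the V-ATPase, 0.059 to 0.14 for MHC class II and 0.011 to 0.091 for the members without CTSO.

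Among tested named genes 12 turned sign, none of them past the threshold as reported. With cyclic loess and quantile normalization the values were 0.13 and 0.11 for CTSA, 0.056 and 0.027 for CSTB, 0.12 and 0.099 for CST3, 0.043 and 0.044 for M6PR, -0.020 and -0.0091 for MITF, 0.13 and 0.12 for NPC2, 0.11 and 0.093 for PPT1, 0.068 and 0.041 for ATP6V1G1 and 0.046 and 0.046 for ATP6V1E1. MITF was -0.015 with median centring. With 1 array left out they ran from -0.14 to 0.11 for CTSA, -0.010 to 0.15 for CTSD, -0.093 to 0.037 for CSTB, -0.19 to 0.17 for CST3, -0.16 to 0.078 for CST4, -0.25 to 0.086 for M6PR, -0.12 to 0.18 for MITF, -0.062 to 0.061 for NPC2, -0.17 to 0.12 for PPT1, -0.086 to 0.015 for ATP6V1G1, -0.15 to 0.023 for ATP6V1E1 and -0.040 to 0.21 for HLA-DOB. The cause was not tested. Without scanner files no signal could be set against background, which limits CTSL, CTSS and the other dim cathepsins most.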
